A study of Bos grunniens and Bos grunniens x Bos taurus with 6 samples.

Results

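Perilipins and the enzymes of lipid droplet turnover were compared between cattle-yak and yak back muscle in 10 genes: PLIN2, PLIN3, PLIN4, PLIN5, LPIN1, PNPLA2, DGAT1, DGAT2, LIPE and CIDEA. Each was taken by its symbol in the deposited transcript table, as the gene identifier with most reads under that symbol, and all transcripts of that identifier were summed. Of the 31044 genes in the table, 7 of these 10 had a transcript under their symbol. No transcript carried the symbol of PNPLA2, DGAT1 or LIPE, so these 3 genes are not judged here.

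Muscle fibres store triglyceride in lipid droplets, organelles with a core of neutral lipid under a single layer of phospholipid. Lipin and the diacylglycerol acyltransferases work on the last steps of triglyceride synthesis, perilipins coat the droplet and control access to it, and the lipases PNPLA2 (ATGL) and LIPE (hormone-sensitive lipase) release fatty acids from it. In oxidative muscle, PLIN5 is known for linking droplets to mitochondria.

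The tissue was longissimus dorsi, a long back muscle, in 3 cattle-yak samples, from hybrids between cattle and yak, and 3 samples of yak (Bos grunniens). Total RNA was made into cDNA, amplified and sequenced as full-length nanopore reads, so that a count is a read assigned to a transcript. Library totals were 2366057 to 2769106 reads in cattle-yak and 2350851 to 2502603 reads in yak. The sources used here give no sex, age, feeding, direction of the cross or batch. Whether each sample was a different animal is not labelled, so every p-value below rests on sample-to-sample spread that may be technical.

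The tissue label was checked against marker genes, whose CPM (read counts relative to library size, after TMM scaling) were summed. The 8 skeletal muscle markers summed to 159900 to 195731 CPM in cattle-yak and 223085 to 251171 CPM in yak. ACTA1 gave 63118 to 82725 CPM of that sum in cattle-yak and 103037 to 128626 CPM in yak. Its symbol stood on 1.57% of the reads of its identifier, and that of MYH7 on 44.3%. A sum without ACTA1 and MYH7 was not taken. ACTA1 and MYH2 were lower in cattle-yak and DES higher (edgeR adjusted p 0.0204, 0.0135 and 0.0147). Of 12 adipocyte markers, 8 had transcripts; their sum was 655 to 1115 CPM in cattle-yak and 1277 to 1533 CPM in yak. GPD1, also expressed in muscle, was 570 to 1005 CPM of that sum in cattle-yak and 1135 to 1373 CPM in yak, and no transcript carried the symbol of ADIPOQ, PLIN1, LEP or RETN. The 7 macrophage markers summed to 43.5 to 104 CPM in cattle-yak and 18.3 to 40.5 CPM in yak, with 7 of 7 means higher in cattle-yak. The 6 fibroblast markers summed to 226 to 433 CPM in cattle-yak and 434 to 549 CPM in yak. LUM, COL1A2 and COL3A1 were lower in cattle-yak (edgeR adjusted p 0.000853, 0.0143 and 0.0047). DCN averaged 230 CPM in cattle-yak and 221 CPM in yak (edgeR adjusted p 0.891), and 2 of the 6 means were higher in cattle-yak. The erythroid markers summed to 0.367 to 2.37 CPM in cattle-yak and 2.70 to 25.3 CPM in yak. The muscle, adipocyte and macrophage sums did not overlap between the groups. The fibroblast and erythroid sums did not either, but they nearly met. The erythroid sums rest on HBB and HBA, which had 1 and 5 reads in cattle-yak 1 and also 1 and 5 in yak 3. Their gap between those libraries therefore comes from scaling alone. The endothelial sums did, at 43.1 to 88.8 CPM in cattle-yak and 43.2 to 46.1 CPM in yak. So did the smooth muscle sums, at 112 to 171 CPM in cattle-yak and 122 to 149 CPM in yak. Of all genes tested singly, 16.9% lay wholly higher in cattle-yak and 16.1% wholly lower. The part of these cell types in the results on the droplet genes was not tested.

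Of the 7 genes with reads, 4 rose in cattle-yak and none fell: LPIN1 by 5.72-fold, PLIN5 by 4.06-fold, PLIN4 by 2.82-fold and PLIN2 by 2.16-fold. PLIN5 entered the test only through cattle-yak, PLIN4 was not called on annotated transcripts alone, and with 1 library left out 1 to 3 of the 7 genes were called. PLIN3, DGAT2 and CIDEA did not pass the test. The test was edgeR's quasi-likelihood test with Benjamini-Hochberg adjustment over the 7504 genes tested, called at an adjusted p under 0.05; 12.6% of all genes tested were called, 6.45% as higher and 6.18% as lower. At an unadjusted p under 0.05 the count was also 4 higher and 0 lower. The share of all genes at that unadjusted threshold was not taken, so this count has no background to be read against. The median log2 difference over all genes tested was 0.02. In bulk tissue, fewer cells of a type and less RNA per cell cannot be told apart, which holds for every gene below.

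**Figure D1:**
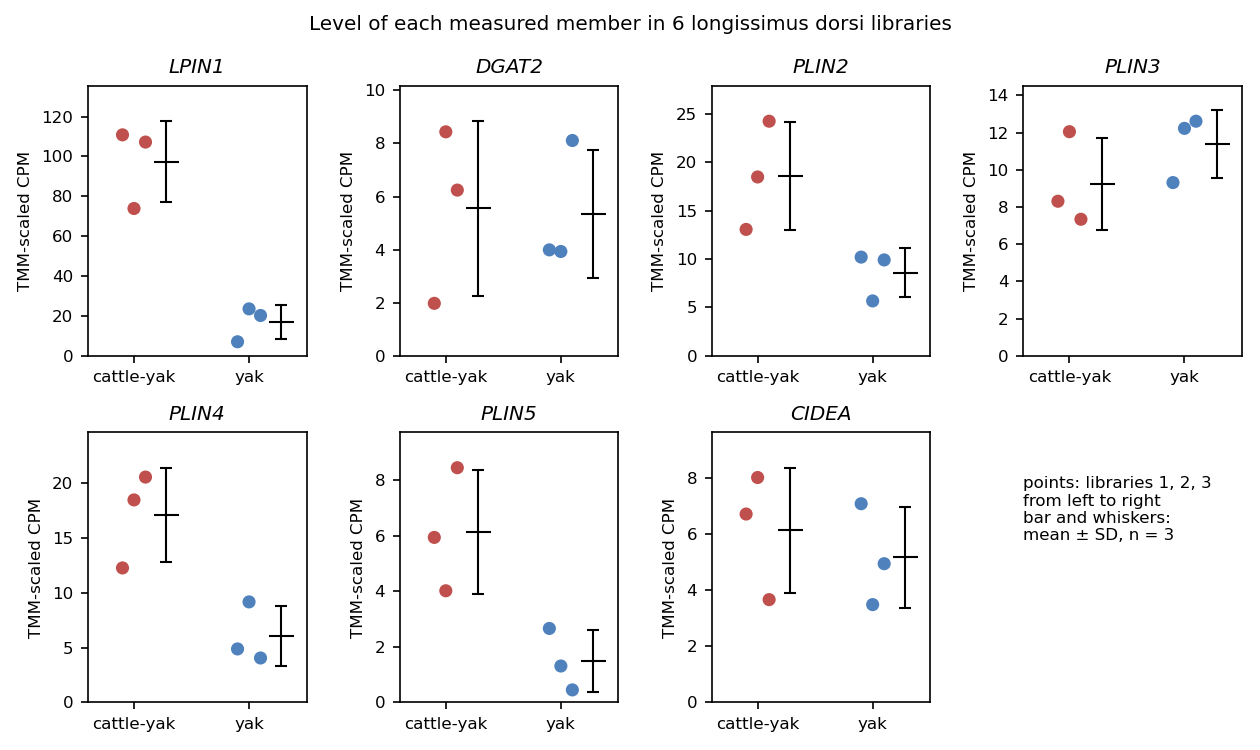
TMM-scaled CPM of the 7 genes in each library (points; cattle-yak left of yak; horizontal bars are group means and whiskers their SD, n = 3). The cattle-yak points of LPIN1, PLIN4, PLIN5 and PLIN2 all lie above the yak points, while those of PLIN3, DGAT2 and CIDEA overlap.

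Synthesis was represented by LPIN1 and DGAT2. LPIN1 encodes lipin 1, the phosphatidate phosphatase that makes diacylglycerol and also acts as a transcriptional coactivator. Its level was 110.8, 73.9 and 107 CPM in the 3 cattle-yak libraries and 7.10, 23.6 and 20.3 CPM in the 3 yak libraries. The lowest cattle-yak library was above the highest yak library by a wide margin. Means were 97.3 ± 20.4 CPM in cattle-yak and 17.0 ± 8.72 CPM in yak (SD, n = 3 each), a log2 difference of 2.51 ± 0.35 (SE), with an edgeR adjusted p of 0.00186. The 95% interval of the fold was 3.31 to 9.88. The call was kept under all 17 alternatives tried, with log2 differences of 2.13 to 2.81.

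DGAT2 encodes the acyltransferase that adds the last fatty acid to diacylglycerol. It had 1.98, 8.44 and 6.24 CPM in cattle-yak and 3.99, 3.93 and 8.11 CPM in yak, and the groups overlapped. The log2 difference was 0.06 ± 0.50, with an edgeR adjusted p of 0.958 and a 95% interval of -1.02 to 1.14. On 43 reads in cattle-yak and 36 in yak, changes inside that interval could not be judged.

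Of the 4 perilipins, 3 rose, among them PLIN4 when all transcripts of its identifier are counted. On annotated transcripts alone its log2 difference was 0.09, with an edgeR adjusted p of 0.932. PLIN4, a perilipin of adipocytes and striated muscle, had 12.3, 18.5 and 20.6 CPM in cattle-yak and 4.88, 9.17 and 4.05 CPM in yak. The groups did not overlap; among all genes tested, 16.9% had every cattle-yak library above every yak library and 16.1% the opposite. Means were 17.1 ± 4.31 CPM in cattle-yak and 6.04 ± 2.75 CPM in yak (SD, n = 3 each), a log2 difference of 1.49 ± 0.36, with an edgeR adjusted p of 0.0162. Without cattle-yak 3, yak 1 or yak 3 the edgeR adjusted p was 0.0516, 0.0635 or 0.0771.

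PLIN5, the perilipin of oxidative tissues, was the gene with fewest reads: 15, 10 and 23 in cattle-yak and 6, 3 and 1 in yak. All 3 cattle-yak libraries and none of the yak libraries were over the minimum of 10 reads in a library of median size, so PLIN5 entered the test only through the group where it was high. Its level was 5.94, 4.02 and 8.45 CPM in cattle-yak and 2.66, 1.31 and 0.45 CPM in yak, without overlap. The log2 difference was 2.02 ± 0.56, with an edgeR adjusted p of 0.0307 and a 95% interval of the fold of 1.76 to 9.38. The call was lost without cattle-yak 1, cattle-yak 3, yak 2 or yak 3, at edgeR adjusted p of 0.0571, 0.127, 0.109 and 0.132, and without yak 1 the log2 difference was 2.71. DESeq2 gave an adjusted p of 0.0633 and limma-voom 0.0708.

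PLIN2, the widely expressed perilipin known to follow the amount of stored lipid, had 13.1, 18.5 and 24.2 CPM in cattle-yak and 10.2, 5.68 and 9.91 CPM in yak. The lowest cattle-yak library lay just above the highest yak library. Means were 18.6 ± 5.59 CPM in cattle-yak and 8.60 ± 2.53 CPM in yak (SD, n = 3 each), a log2 difference of 1.11 ± 0.33, with an edgeR adjusted p of 0.0413. Leaving out any library other than cattle-yak 1 ended the call, at edgeR adjusted p of 0.0694 to 0.158, as did DESeq2 at 0.0658 and limma-voom at 0.0579. With either of those tools 2 of the 7 genes rose, LPIN1 and PLIN4, where 5.14% of all genes were called higher by DESeq2 and 5.08% by limma-voom. Over all genes, the share called higher was 6.45%, 4.51% and 5.29% without cattle-yak 1, 2 and 3, and 3.91%, 3.71% and 3.35% without yak 1, 2 and 3. Reference transcripts alone left 1 of the 7 genes testable and none called, where 5.78% of genes were called higher. With the replicate number as an added term it was 6.06%, and 4 of the 7 genes rose.

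**Figure D2:**
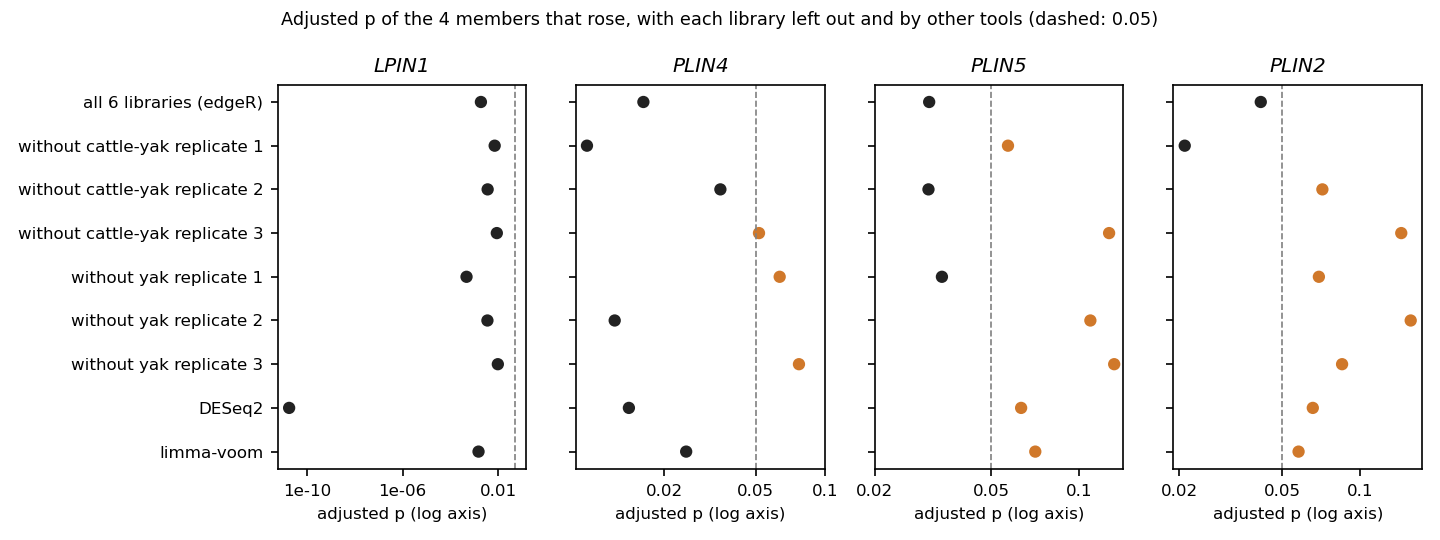
Adjusted p (log axes, of different range in each panel) of LPIN1, PLIN4, PLIN5 and PLIN2 with all 6 libraries, with each library left out, and by DESeq2 and limma-voom; the dashed line is 0.05 and orange points lie past it. LPIN1 stays left of the line in every setting, and PLIN2 crosses it in 7 of the 8 alternatives shown.

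PLIN3 (TIP47), a perilipin that moves between cytosol and new droplets, was the perilipin that did not pass the test. It had 8.31, 12.1 and 7.34 CPM in cattle-yak and 9.32, 12.2 and 12.6 CPM in yak, with overlap. The log2 difference was -0.30 ± 0.31, with an edgeR adjusted p of 0.57 and a 95% interval of the fold of 0.507 to 1.29. That interval lies below the 2.16-fold of PLIN2, but the difference between the genes was not tested.

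CIDEA promotes the fusion of droplets and is known from brown and beige fat. It had 6.73, 8.03 and 3.67 CPM in cattle-yak and 7.10, 3.49 and 4.96 CPM in yak, and the libraries were interleaved. The log2 difference was 0.24 ± 0.42, with an edgeR adjusted p of 0.761 and a 95% interval of -0.67 to 1.14. No transcript carried the symbol of UCP1, the uncoupling protein of brown fat.

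**Figure D3:**
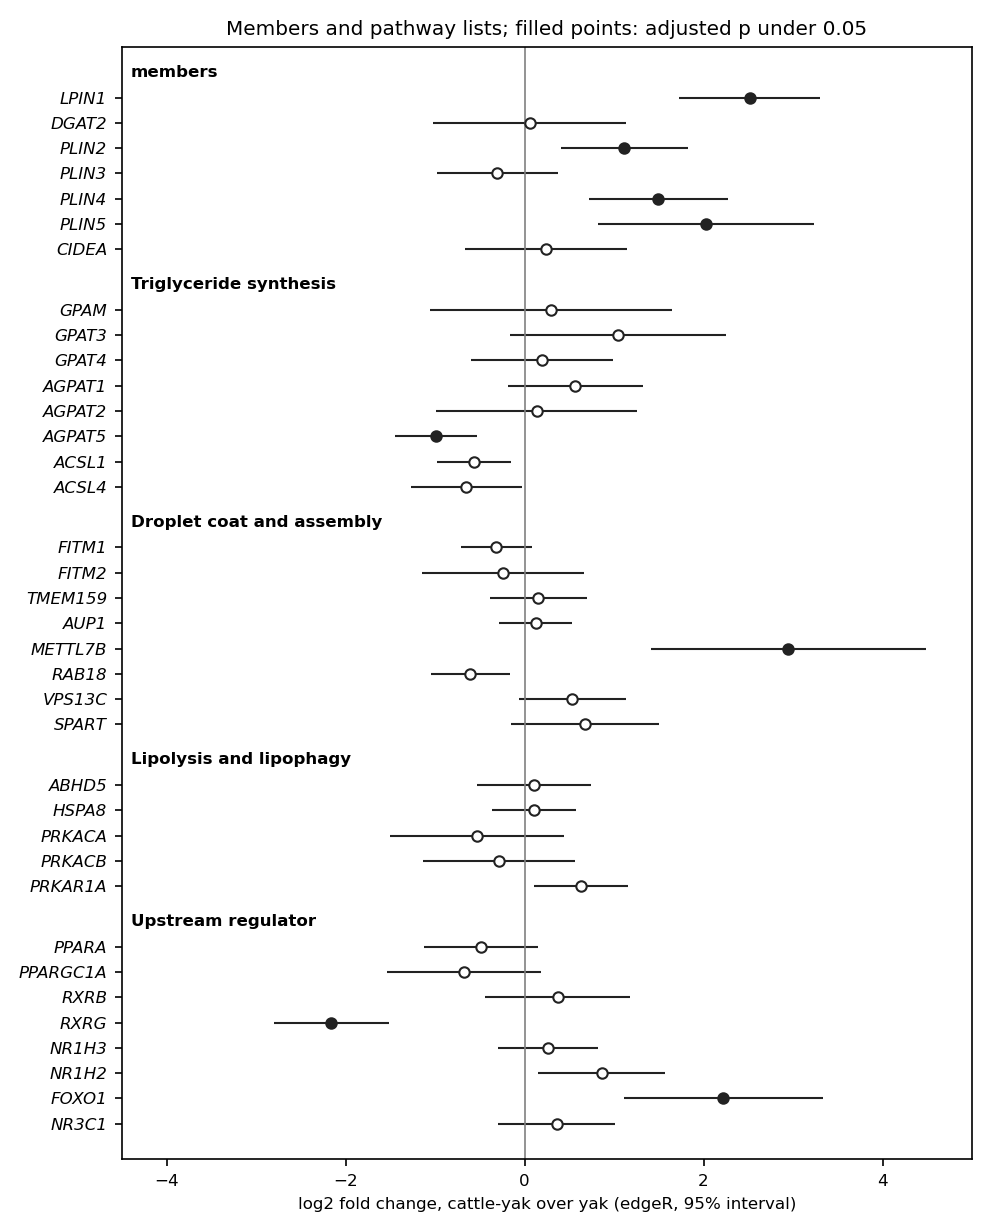
Log2 difference, cattle-yak over yak, of the 7 genes and of the 29 tested genes in 4 lists of other pathway genes (points) with 95% intervals (bars). Filled points have an edgeR adjusted p under 0.05. The intervals of LPIN1, PLIN5, PLIN4 and PLIN2 lie above 0 and those of CIDEA, DGAT2 and PLIN3 include it.

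Full-length reads also separate the transcripts of each gene. Of 6 transcripts of these genes that passed the low-count filter, 4 rose in cattle-yak and none fell, where 18.5% of all 15804 transcripts tested were called, 9.64% as higher and 8.86% as lower. These were 2 of LPIN1 and 1 each of PLIN2 and PLIN5. With no filter 7 of 119 were called, where 1.12% of all transcripts were called higher, and with the replicate block 3 of 6, where 8.42% were. Leaving out 1 library gave 2 to 4, where the share called higher over all transcripts was 8.93%, 5.97% and 8.32% without cattle-yak 1, 2 and 3, and 6.23%, 5.73% and 6.4% without yak 1, 2 and 3. The leading PLIN2 transcript, TALONT001470213, had 25, 35 and 45 reads in cattle-yak and 13, 7 and 13 reads in yak, a log2 difference of 1.48 ± 0.36 with an edgeR adjusted p of 0.0124. It held 73.3 ± 4.47% of PLIN2 reads in cattle-yak and 56.5 ± 2.62% in yak (SD, n = 3 each), a share that was not tested. The call was lost without yak 2, at an edgeR adjusted p of 0.0692. The second PLIN2 transcript, TALONT001470497, had 0, 4 and 4 reads in cattle-yak and 1, 5 and 4 in yak, and was too low to test. The leading PLIN5 transcript, TALONT001086650, had 13, 10 and 16 reads in cattle-yak and 6, 3 and 1 reads in yak, a log2 difference of 1.75 ± 0.56 with an edgeR adjusted p of 0.0433. It too passed the filter only through cattle-yak, and without yak 1 the log2 difference was 2.43. The remaining 9 PLIN5 reads of cattle-yak lay in 3 transcripts with no yak read. The call on the leading one was lost with DESeq2, at an adjusted p of 0.121 where 7.37% of transcripts were called higher, with no low-count filter, at an edgeR adjusted p of 0.11, and without any library other than yak 1, at edgeR adjusted p of 0.0872 to 0.173.

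LPIN1 was the most divided gene, with 63 transcripts, every one assembled from the reads. TALONT001262926 had 67, 54 and 92 reads in cattle-yak and 3, 14 and 13 reads in yak, a log2 difference of 2.63 ± 0.40 with an edgeR adjusted p of 0.000673. TALONT001262244 had 47, 28 and 72 reads in cattle-yak and 1, 2 and 0 reads in yak, a log2 difference of 5.27 ± 0.60 with an edgeR adjusted p of 7.61e-05, and 6.08 without yak 2. It passed the low-count filter only through cattle-yak. Both were therefore higher in every cattle-yak library. Neither transcript carried a symbol or a description, and whether their reads are LPIN1 was not tested. The usage test of LPIN1 on all 6 libraries, given below, rests on these 2 transcripts. The second held 18.9 ± 5.06% of LPIN1 reads in cattle-yak and 3.32 ± 3.14% in yak, while the first held 28.3 ± 3.90% in cattle-yak and 24.5 ± 5.21% in yak. A test of transcript usage with edgeR's diffSpliceDGE, which removes the gene's total level, did not call LPIN1 (adjusted p 0.077); it called 8.29% of the 1821 genes tested. LPIN1 was called without cattle-yak 1, cattle-yak 2 or yak 1, at edgeR adjusted p of 0.0485, 0.0266 and 0.0254. PLIN4 could be tested only with a library left out. It was called without cattle-yak 1, at a diffSpliceDGE adjusted p of 0.00347. Without yak 1 or yak 3 it was not called, at adjusted p of 0.369 and 0.306. Its transcript TALONT001087316, with 0, 20 and 28 reads in cattle-yak and none in yak, could pass the low-count filter only through cattle-yak. The p of the PLIN4 usage call is therefore a description. Over all genes, usage was called in 7.39%, 3.86% and 5.45% without cattle-yak 1, 2 and 3, in 3.73%, 4.24% and 3.38% without yak 1, 2 and 3, and in 6.48% with the replicate block. Of the other LPIN1 transcripts with at least 5% of its reads, TALONT001262716 had 20, 5 and 16 reads in cattle-yak and 2, 3 and 3 in yak, without overlap. TALONT001262265 had 8, 6 and 13 reads in cattle-yak and 2, 15 and 4 in yak, where yak 2 was the highest library. Both were too low to test. LPIN1 had 40 transcripts with reads in cattle-yak only, holding 189 of its 756 cattle-yak reads (25.0%). Another 5 had reads in yak only, holding 20 of its 115 yak reads (17.4%). The medians of these shares over all genes tested were 0.744% and 0%, and 2.2% of genes had a cattle-yak share at least as large. With few yak reads in all, a transcript of low count can lack them. Whether these transcripts are particular to a group was not tested.

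PLIN3, whose total passed no test, also had a transcript seen in 1 group. TALONT001083273 had 4, 6 and 1 reads in cattle-yak and none in yak, at least 3.54-fold higher when yak, over its libraries together, is set at 3 counts. In the other direction, TALONT001083228 had no read in cattle-yak and 2 in each yak library, and 2 PLIN3 transcripts in all were read in yak only, with 8 reads. The reference transcript ENSBGRT00000025139 had 12, 17 and 12 reads in cattle-yak and 18, 21 and 17 reads in yak, with an edgeR adjusted p of 0.253. TALONT001083118 had 1, 0 and 3 reads in cattle-yak and 1, 2 and 3 in yak, so both groups used it at a few reads. The leading CIDEA transcript, TALONT000489117, had 13, 16 and 7 reads in cattle-yak and 14, 7 and 8 reads in yak, with an edgeR adjusted p of 0.867. TALONT000489101 had 2, 4 and 2 reads in cattle-yak and 1, 0 and 3 in yak. These CIDEA transcripts overlapped between the groups, as did TALONT000489237 at 3 reads in cattle-yak and 2 in yak. The leading DGAT2 transcript, TALONT000067194, had 5, 13 and 10 reads in cattle-yak and 7, 8 and 15 in yak, also with overlap, and did not pass the low-count filter. The other DGAT2 transcripts with at least 5% of its reads had 0 to 3 reads in any library.

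For PLIN4, the reads that differed most between the groups were on transcripts without an annotation. The PLIN4 symbol stood on 24.1% of the reads of its gene identifier, a description alone on others, and nothing on the rest. Reads under the symbol numbered 0, 12 and 5 in cattle-yak and 8, 12 and 5 in yak, which overlapped. Reads with a description alone numbered 5, 8 and 14 in cattle-yak and 2, 7 and 3 in yak. Reads with neither numbered 26, 26 and 37 in cattle-yak and 1, 2 and 1 in yak. The last class was thus higher in every cattle-yak library.

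Counted on annotated transcripts alone, PLIN4 had a log2 difference of 0.09 ± 0.51 with an edgeR adjusted p of 0.932, and on unannotated ones alone 3.99 ± 0.51 with an adjusted p of 0.000249, where 6.26% and 6.47% of genes in those counts were called higher. The test between both classes within the gene, edgeR's diffSpliceDGE, gave an adjusted p of 0.0037 for PLIN4 and 0.844 for LPIN1, with 8 of 250 genes called (3.2%). LPIN1 reads under the symbol numbered 144, 79 and 98 in cattle-yak and 10, 14 and 18 in yak, and those with no annotation 136, 104 and 193 in cattle-yak and 6, 40 and 25 in yak. LPIN1 rose in both classes, by 2.71 ± 0.31 on annotated and 2.22 ± 0.53 on unannotated transcripts, at edgeR adjusted p of 0.000162 and 0.0297. These classes were chosen after seeing the data, and the unannotated PLIN4 count passed the low-count filter only through cattle-yak, so its p is a description. Whether the unannotated reads are PLIN4 was not tested.

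One unannotated PLIN4 transcript, TALONT001087316, had 0, 20 and 28 reads in cattle-yak and none in yak, at least 15.5-fold higher with yak set at the same 3 counts. Cattle-yak 1 had no read of it, and its unannotated reads lay in other transcripts. The leading transcript with the PLIN4 symbol, TALONT001086812, had 0, 12 and 3 reads in cattle-yak and 8, 11 and 4 in yak. TALONT001086815 had 0, 4 and 8 reads in cattle-yak and none in yak. The other PLIN4 transcripts with at least 5% of its reads, TALONT001086827 and TALONT001086868, had at most 5 reads in any library and overlapped between the groups. In all, 14 of the 22 PLIN4 transcripts were read in cattle-yak only and held 73.7% of its cattle-yak reads. The median of all genes tested was 0.744%, and 0.12% of them had a share as large. Those genes were not matched to PLIN4 in depth or number of transcripts, and PLIN4 had 133 reads in cattle-yak and 41 in yak. In the RefSeq assembly Bosgru_T2T1.0, PLIN4 lies next to PLIN5, and overlapping or neighbouring genes can share reads; whether that touched PLIN4 was not tested.

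**Figure D4:**
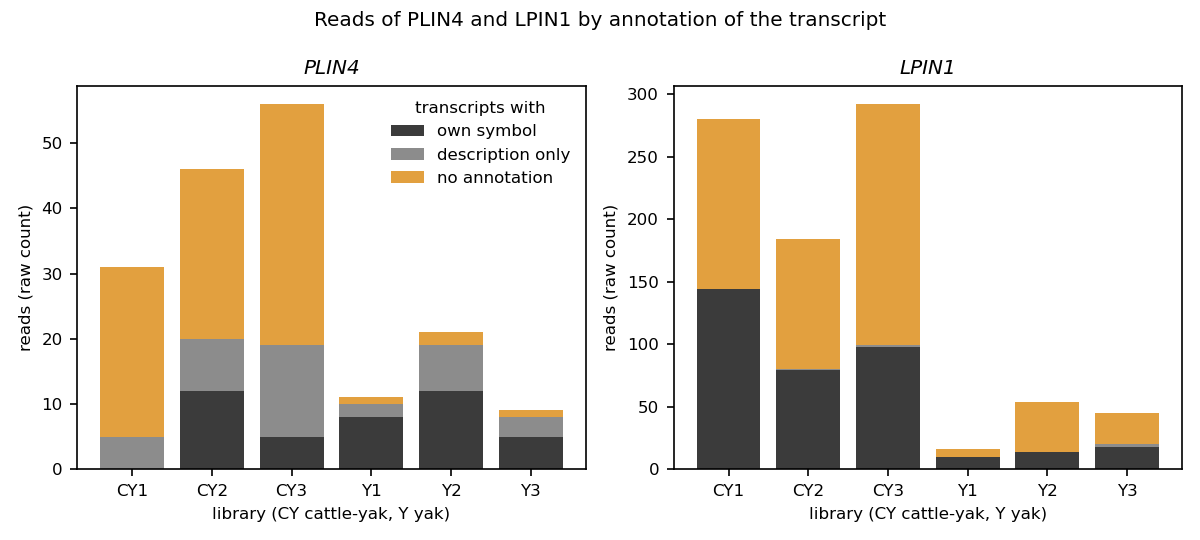
Reads of PLIN4 and LPIN1 in each library (cattle-yak left of yak), split into transcripts with the symbol, with a description alone and with neither. In PLIN4 the class with neither has 26 to 37 reads in cattle-yak and 1 or 2 in yak, while in LPIN1 annotated and unannotated reads are both more numerous in cattle-yak.

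The other pathway genes were called about as often as all genes. Of 71 further genes in 4 lists, 29 could be tested: 2 rose, 2 fell and 25 did not pass, beside 6.45% and 6.18% of all genes, with a median log2 difference of 0.14. In triglyceride synthesis, 1 of 8 tested genes fell and none rose, with a median of 0.17. That gene was AGPAT5, a lysophosphatidic acid acyltransferase, with 113, 63.5 and 67.9 CPM in cattle-yak and 169, 163 and 153 CPM in yak, a log2 difference of -0.99 ± 0.21 and an edgeR adjusted p of 0.00864. Among genes of the droplet coat and assembly, 1 of 8 rose, with a median of 0.14. METTL7B, a droplet-associated methyltransferase, had 41.6, 11.6 and 12.9 CPM in cattle-yak and 1.33, 5.24 and 1.80 CPM in yak, a log2 difference of 2.95 ± 0.68 and an edgeR adjusted p of 0.0239. Its highest library was cattle-yak 1, without which the log2 difference was 2.10; without yak 2 it was 3.75. The METTL7B call was lost without yak 1 or yak 3, at edgeR adjusted p of 0.0913 and 0.0981.

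None of the 5 tested genes of lipolysis and lipophagy passed, in either direction, and their log2 differences ran from -0.53 to 0.63. ABHD5, the coactivator of PNPLA2, was at 0.10 ± 0.30. Among regulators upstream, 1 of 8 tested genes rose and 1 fell, with a median of 0.31. RXRG, a retinoid X receptor that partners the PPARs, had 7.92, 6.43 and 15.1 CPM in cattle-yak and 54.1, 39.7 and 39.2 CPM in yak, a log2 difference of -2.16 ± 0.30 and an edgeR adjusted p of 0.000569. FOXO1, a transcription factor of the fasting response, had 47.9, 44.2 and 24.6 CPM in cattle-yak and 3.11, 6.11 and 15.8 CPM in yak, a log2 difference of 2.22 ± 0.49 and an edgeR adjusted p of 0.0202. Neither gene overlapped between the groups. The FOXO1 call was lost without cattle-yak 2 or yak 2, at edgeR adjusted p of 0.0776 and 0.0896, and with the replicate block, at 0.0776, and without yak 3 its log2 difference was 3.04. PPARA and PPARGC1A, which drive fatty acid oxidation, had log2 differences of -0.49 ± 0.30 and -0.68 ± 0.40, and neither passed; the PPARA symbol stood on 6 of the 138 reads of its identifier.

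Adipocyte markers were measured in the same libraries. FABP4, the fatty acid binding protein of adipocytes, had 1.98, 17.7 and 3.67 CPM in cattle-yak and 13.3, 15.7 and 18.5 CPM in yak. CIDEC, the droplet fusion protein of white fat, had 0, 0 and 0.734 CPM in cattle-yak and 0.887, 0.873 and 2.70 CPM in yak. CFD, or adipsin, averaged 17.4 CPM in cattle-yak and 12.4 CPM in yak, with its symbol on 52 of the 219 reads of its identifier. PCK1 averaged 0.268 CPM in cattle-yak, from 2 reads in cattle-yak 2, and 0 in yak. CFD and PCK1 were the 2 of the 12 markers with the higher mean in cattle-yak. Of the 5 adipocyte markers tested, 2 fell and none rose. GPD1, a glycerol phosphate dehydrogenase, had a log2 difference of -0.76, and AQP7, the glycerol channel, one of -0.79 (edgeR adjusted p 0.0325 and 0.024). Both are also expressed in muscle, and the AQP7 symbol stood on 412 of the 1192 reads of its identifier. SCD had a log2 difference of -1.25 ± 0.42 and did not pass (edgeR adjusted p 0.0676). Among macrophage markers, CTSS, a lysosomal cathepsin, had 26.5, 51.0 and 31.2 CPM in cattle-yak and 10.6, 13.1 and 16.2 CPM in yak and rose by 1.44 on the log2 scale (edgeR adjusted p 0.0057); PLIN2 is also expressed in macrophages, and the part of these cells in its difference was not tested.

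The genes with profiles most like each riser over the 6 libraries were found among 3781 named genes with a mean of at least 10 CPM, by the root mean square difference of log2 CPM. For LPIN1 they were FKBP5 (0.378), a glucocorticoid-responsive chaperone, BDH2 (0.449) and RPL36 (0.502). For PLIN4 they were H2AJ (0.230), EIF4EBP1 (0.247) and MBNL1 (0.257). For PLIN5 they were POL (0.321), SLC29A2 (0.366) and TMCC1 (0.377), and for PLIN2 they included PKIG (0.138) and ANO6 (0.195).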

How the data were processed

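For 6 libraries the authors deposited raw read counts per transcript and CPM, whose denominator was the library's own sum of counts; the deposited CPM equalled count over total within 0.005. Per the submitters' processing notes the tools included fastp, minimap2 and GSNAP, with no versions or roles. Genome build and counting software: not given in the sources used here. Totals were 2350851 to 2769106 counts per library, so a floor of 3 counts stands for about 1.08 to 1.28 CPM. Floors cover counting error only, since the reads were amplified by PCR and carry no molecular identifiers.

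The table held 179856 transcripts, 6986 with a reference identifier and 172870 assembled. A further 132 lines had no values, and 61 transcripts without a gene identifier, at most 0.00249% of a library, were left out. Counts were summed by gene. The test was that of edgeR 4.0.16 under R 4.3.3 (filterByExpr with a minimum count of 10, about 4.17 CPM; TMM; robust quasi-likelihood test; Benjamini-Hochberg over all genes). Transcripts were tested likewise, and usage with diffSpliceDGE on transcripts holding at least 5% of a gene's reads. Steps were tested on simulated data. DESeq2 1.42.0, limma 3.58.1 voom, other filters and scalings, a replicate block and leaving out each library were alternatives.

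The members and lists were chosen with earlier results of these data known. Every member was named; of the lists, each tested gene past the threshold. Of 71 list genes, 17 had no transcript under their symbol, 2 had a symbol that most of the gene's named reads did not carry and 23 were too low to test. Comparison of same-numbered libraries and of all library pairs found no shared library. Of the genes most like PLIN2, 1 is not reported here.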

Additional observations from a re-analysis of the deposited data

How the results depend on the processing

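Of 109 alternative values of the 7 genes, 83 kept their direction and their side of the threshold, 17 lost the call, none gained one and 9 changed sign. LPIN1 lost no call. Of the 7 genes, 4 rose as reported, 2 by DESeq2 and 2 by limma-voom. On annotated transcripts 3 of 7 rose, on unannotated ones 2 of 2 tested and on reference ones 0 of 1 tested. In those counts 6.26%, 6.47% and 5.78% of all genes were called higher. The split by annotation was chosen after seeing the data, and unannotated PLIN4 passed the low-count filter only through cattle-yak. Leaving out 1 library gave 1 to 3. The changed transcripts numbered 4 as reported, 7 with no filter and 2 to 4 leaving out 1 library. Usage calls ranged from 0 to 2, and calls in the lists from 3 to 5, leaving out 1 library. PLIN4 on annotated transcripts had a log2 difference of 0.09. Signs changed in genes that passed no test. CIDEA was at -0.0026 without yak 2, and leaving out each library spanned -0.0026 to 0.51. DGAT2 was at -0.050 on assembled transcripts, -0.078 by limma-voom and -0.074 with no filter; leaving out cattle-yak 2, cattle-yak 3, yak 1 or yak 2 gave -0.35, -0.049, -0.13 or -0.14, and leaving out each library spanned -0.35 to 0.46. Scaling by library size alone moved the median of all genes to 0.18 from 0.02, and with no filter it was 0.24. The cause of these changes was not tested.

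Deviations of same-numbered libraries correlated at -0.038, -0.016 and 0.017, so they showed no sign of pairing by replicate number. With 3 libraries in each group, these values cannot exclude a pairing or a shared batch. With the replicate block, 4 of the 7 genes rose and 3 transcripts did, the PLIN5 transcript TALONT001086650 being lost (adjusted p 0.0784); LPIN1 usage had an adjusted p of 0.134 (0 calls), DGAT2 was at -0.0016 and FOXO1 at an adjusted p of 0.0776, all by edgeR. At 10 yak reads for PLIN5 and 79 and 82 reads in all for DGAT2 and CIDEA, depth limits what these genes can show.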
